A study of Homo sapiens with 8 samples.

Results

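The microRNA miR-7 was followed in HCT116 cells through its entries hsa-miR-7-5p, the guide strand, and hsa-miR-7-1-3p, the strand of the opposite arm of the miR-7-1 hairpin. These are 2 of the 2575 miRNA names in each deposited file, picked by name, and the pair was chosen for study because the guide is highly abundant in these cells. Both passed the filter on low counts, which left 480 names. The cells come from a human colorectal cancer, and cultures at passage 16 to 19 were used for small RNA sequencing. In the 4 ETBF libraries they were exposed for 6 hours, at a multiplicity of infection of 500, to enterotoxigenic Bacteroides fragilis (ETBF), an intestinal anaerobe that makes a toxin with protease activity. The 4 control libraries, titled untreated, are of cells that got the medium of the bacteria and no ETBF. The labels do not state whether replicates are separate cultures, so each p-value covers the spread between these libraries, part of which may be technical. All levels are relative to the library, and fewer cells of a type cannot be told apart from less RNA per cell.

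MiRNAs are cut from hairpin precursors by Drosha and Dicer, after which 1 strand of the duplex, the guide, is loaded into an Argonaute protein and the passenger strand is mostly discarded. The guide pairs with messenger RNAs mainly through its seed, bases 2 to 8. MiR-7 is conserved across bilaterian animals, is enriched in neurons and endocrine cells, and represses several genes of growth factor signalling, among them EGFR and IRS2. It is bound by the circular RNA CDR1as, which miR-671-5p can direct Argonaute to cut.

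The sequences show which reads can be assigned to which hairpin. Human miR-7 has 3 hairpin genes. On the GRCh38 assembly (the submitters' processing notes name GRCh37.p5), MIR7-1 lies at chr9:83969748-83969857 on the minus strand, inside HNRNPK, a gene for an RNA-binding protein. It is intronic in 6 of the 7 HNRNPK transcripts that span it and overlaps an exon of 1. MIR7-2 lies at chr15:88611825-88611934 on the plus strand and overlaps only MIR3529, annotated on the opposite strand. MIR7-3 lies at chr19:4770670-4770779 on the plus strand, in an intron of every annotated transcript of the non-coding gene MIR7-3HG that spans it. The mature sequences, from RefSeq (GRCh38.p14), are given 5′ to 3′ with the seed in capitals.
hsa-miR-7-5p: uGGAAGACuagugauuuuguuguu
hsa-miR-7-1-3p: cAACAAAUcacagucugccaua
hsa-miR-7-2-3p: cAACAAAUcccagucuaccuaa
The 2 hairpins with a RefSeq entry in the table used here are given with the guide in capitals, to show that they hold the same 24 bases.
MIR7-2: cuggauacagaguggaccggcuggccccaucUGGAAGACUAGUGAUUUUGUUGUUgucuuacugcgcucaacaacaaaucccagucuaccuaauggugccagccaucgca
MIR7-3: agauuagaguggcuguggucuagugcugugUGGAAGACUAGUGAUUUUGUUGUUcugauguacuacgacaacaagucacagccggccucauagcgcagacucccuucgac

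A guide read therefore does not name its hairpin, whereas miR-7-1-3p and miR-7-2-3p can be told apart. Counted from the 5′ end, miR-7-2-3p differs from miR-7-1-3p by A10C, G17A, A20U and U21A and shares the other 18 of 22 bases. These 2 passenger arms share the seed AACAAAU. No other of 2370 human mature names in the RefSeq table has that seed, and none but miR-7-5p has GGAAGAC.

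The guide was the second most abundant miRNA in all 8 libraries, a property for which it was chosen. It took 16.4%, 19.4%, 19.1% and 16.8% of the counts of ETBF replicates 1 to 4, and 17.3%, 15.3%, 15.6% and 15.3% of those of control replicates 1 to 4. The highest values were those of ETBF replicates 2 and 3, and control replicate 1 lay above ETBF replicates 1 and 4, so the groups overlap. Behind these shares stand 434604 to 781832 guide counts in ETBF libraries and 818098 to 996662 in control libraries, and 95% Wilson intervals spanned 16.4% to 16.5% in ETBF replicate 1 and 15.3% to 15.4% in control replicate 2. Such intervals and detection limits hold the error of counting alone, as reads carry no molecular identifiers.

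The mean share was 17.9% ± 1.52 in ETBF libraries and 15.9% ± 0.955 in control libraries (SD, n = 4 each), a difference of 2.03 percentage points (two-sided exact permutation p = 0.0857 over 70 arrangements, adjusted p = 0.0857 over the 2 shares tested). With 4 against 4 libraries the smallest p is 0.0286. In CPM, counts per 1000000 counts of the library after scaling with the TMM method of edgeR, the guide was at 175591 ± 13223 CPM in ETBF libraries and 162128 ± 14087 CPM in control libraries (mean ± SD, n = 4 each). The fold was 1.08 with a 95% interval of 0.967 to 1.21, on the log2 scale 0.12 (SE 0.08), and did not pass (edgeR quasi-likelihood test, adjusted p = 0.278 over the 480 miRNAs tested). The interval leaves room for a rise of up to 1.21-fold and does not show that the levels are equal. Leaving out control replicate 1 gave a log2 fold change of 0.17 (adjusted p = 0.0627), and leaving out ETBF replicate 3 gave 0.06 (adjusted p = 0.643).

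**Figure D1:**
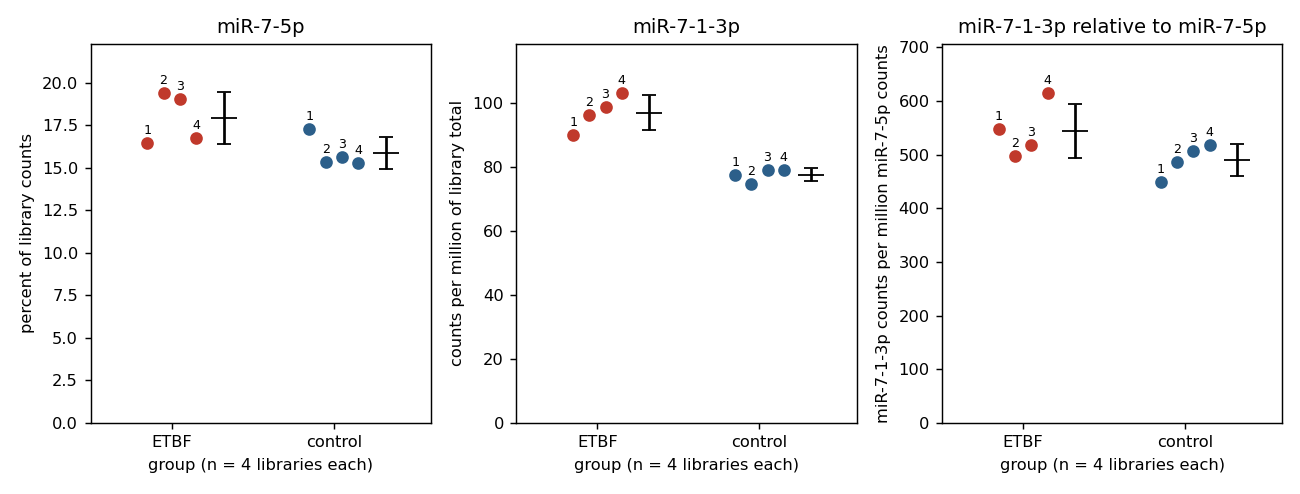
Level of both miR-7 strands in each library, with replicate numbers beside the points and mean ± SD (bars) to their right. The left panel gives miR-7-5p as percent of library counts, the middle panel miR-7-1-3p as CPM of the library total, and the right panel miR-7-1-3p relative to miR-7-5p, scaled like CPM but to guide counts. The 4 ETBF libraries lie above the 4 control libraries in the middle panel, and the groups overlap in the others.

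No neighbour in the order of levels came near the guide. Above it stood miR-21-5p, raised in many tumours, with 346676 ± 26993 CPM in ETBF libraries and 352044 ± 21851 CPM in control libraries (mean ± SD, n = 4 each). Below it came miR-100-5p with 51630 ± 5072 CPM in ETBF and 53755 ± 13145 CPM in control libraries. Next were let-7f-5p, with 48227 ± 1635 CPM in ETBF and 51881 ± 2552 CPM in control libraries, and let-7a-5p, with 39534 ± 2247 CPM in ETBF and 45674 ± 1327 CPM in control libraries. The lowest miR-21-5p library was at 313607 CPM, guide libraries ran from 148641 to 189822 CPM, and the highest miR-100-5p library was at 68753 CPM, so these 3 did not overlap, while miR-100-5p overlapped with let-7f-5p. Mature miRNAs are of similar length, and the levels are not corrected for differences in ligation between sequences.

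**Figure D2:**
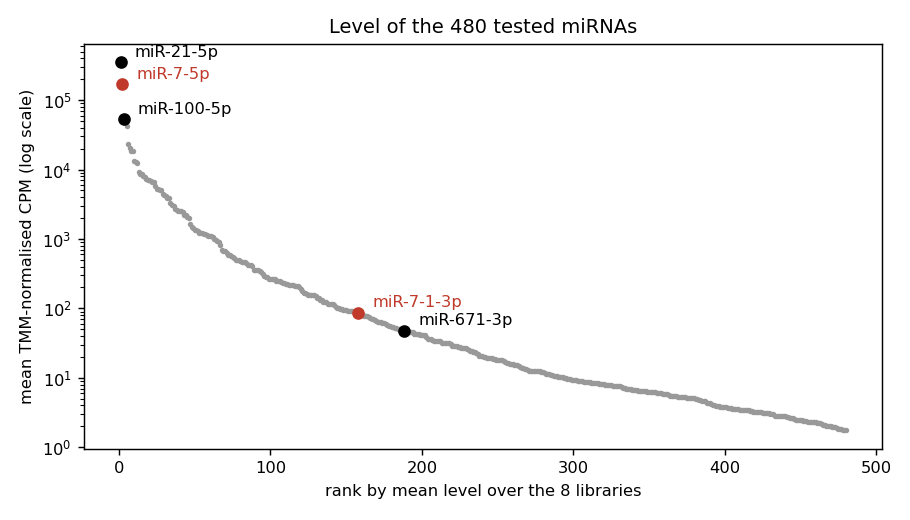
Mean TMM-normalised CPM over the 8 libraries (log scale) against rank for the 480 tested miRNAs, with both miR-7 strands in red. MiR-7-5p is at rank 2 and miR-7-1-3p at rank 158.

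The passenger strand of miR-7-1 was called higher with ETBF, a call lost in 8 of 18 alternatives. It had 423, 389, 383 and 267 counts in ETBF replicates 1 to 4 and 409, 451, 414 and 516 counts in control replicates 1 to 4. Relative to library totals these are 89.9, 96.4, 98.7 and 103 CPM in ETBF libraries, against 77.5, 74.7, 79.0 and 79.1 CPM in control libraries. Every ETBF library lay above every control library. Its rank within the library was 148 to 151 with ETBF and 158 to 160 in controls. In the order of mean levels miR-625-3p and miR-1307-5p stood just above it and miR-28-5p and miR-328-3p just below. MiR-1307-5p was at 83.6 ± 8.08 CPM in ETBF and 94.4 ± 9.66 CPM in control libraries and did not pass. The other 3 fell with ETBF. MiR-625-3p was at 80.1 ± 8.09 CPM in ETBF and 98.0 ± 4.89 CPM in control libraries (log2 fold change -0.29, edgeR adjusted p = 0.0271), a call lost in 4 of 18 alternatives. MiR-28-5p was at 71.5 ± 11.5 CPM in ETBF and 97.7 ± 12.1 CPM in control libraries (-0.45, edgeR adjusted p = 0.00903), and miR-328-3p at 68.0 ± 11.1 CPM in ETBF and 97.5 ± 5.32 CPM in control libraries (-0.51, edgeR adjusted p = 0.00163). Over the 8 libraries the range of each of these 4 overlaps with that of miR-7-1-3p.

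With TMM scaling miR-7-1-3p averaged 95.2 ± 4.66 CPM in ETBF libraries and 79.1 ± 1.81 CPM in control libraries (mean ± SD, n = 4 each). This is 1.20-fold higher with a 95% interval of 1.06 to 1.36 (log2 fold change 0.26, SE 0.08, edgeR adjusted p = 0.0220). Of all 480 tested miRNAs 34.4% were called and 33.8% had groups that did not overlap. Those called higher made up 19.8%, and those with all ETBF libraries above all control libraries 18.1%, so such a call is common in these data. Calls were 95 higher and 70 lower with TMM, against 71 higher and 89 lower with upper-quartile scaling. The share of the library was 0.00970% ± 0.000549 in ETBF libraries and 0.00776% ± 0.000206 in control libraries (exact permutation p = 0.0286, the smallest possible, adjusted p = 0.0571 over the 2 shares tested). The miR-7-1-3p call was lost in 8 of 18 alternatives, all of which kept the direction. They were upper-quartile scaling (log2 fold change 0.18, adjusted p = 0.151), no filter on low counts (0.22, adjusted p = 0.232), thinning to equal depth (0.19, adjusted p = 0.122), and removal of a single library, which gave an adjusted p of 0.0790 and 0.0573 without ETBF replicates 3 and 4, and of 0.0555, 0.0598 and 0.0609 without control replicates 2, 3 and 4.

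The strands differed in what limits their precision. The counting error of the guide was 0.100% to 0.152% of its count per library, while its libraries spread by 7.53% (ETBF) and 8.69% (control) of the group mean. For miR-7-1-3p the counting error was 4.4% to 6.12%, and its libraries spread by 4.90% (ETBF) and 2.29% (control). For the guide the spread between libraries is much larger than the counting error, and for the passenger it is of similar or smaller size.

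Library depth and entries that resemble other RNA classes moved with the groups. Totals ran from 2591655 to 4706156 counts with ETBF and from 5243400 to 6522542 in controls. Of 12 listed entries that resemble ribosomal or other abundant RNAs, a sign of RNA quality, 6 were at 0 in every library. Of the 12, 4 were tested and all 4 rose, miR-6087, miR-7641, miR-1303 and miR-3687, where 19.8% of all 480 tested miRNAs were called higher. MiR-6087 overlapped between the groups, and its call was lost in 4 of 18 alternatives. The 4 entries summed to 190 to 603 CPM with ETBF and 44.5 to 172 CPM in controls. Their part in the miR-7-1-3p result was not tested. Library totals that leave these entries out gave a difference in its share of 0.00195 percentage points, against 0.00194 with all counts. Entries that make up so little of a library can hardly move its total, so these 2 values do not bear on that question.

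Relative to the guide, miR-7-1-3p showed no difference that passed. For each miR-7-1-3p count there were 1828, 2010, 1930 and 1628 guide counts in ETBF replicates 1 to 4, against 2230, 2052, 1976 and 1932 in control replicates 1 to 4. ETBF replicates 1 and 4 were lowest and control replicate 1 highest, and the groups overlap. The mean was 1849 ± 165 in ETBF libraries and 2047 ± 131 in control libraries (SD, n = 4 each). The log2 ratio of passenger to guide was 0.15 higher with ETBF (SE 0.13, 95% interval -0.11 to 0.41, limma adjusted p = 0.343 over 138 hairpin pairs). Of the 138 pairs, 43.5% passed, with the minor arm relatively higher with ETBF in 35.5% and relatively lower in 7.97%. The guide counts pool 3 hairpins, so this ratio is not that of the miR-7-1 hairpin alone.

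The guide outnumbered miR-7-1-3p 1939-fold (geometric mean over the 8 libraries), the ninth most one-sided of the 138 pairs, whose median was 15.3-fold. More one-sided pairs were miR-26a-5p over miR-26a-1-3p (10673-fold) and let-7f-5p over let-7f-2-3p (5551-fold). Because the guide was chosen for its abundance, this order is a description.

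MiR-7-1-3p was 1 of 13 minor arms that rose among the 22 tested minor arms of the 20 most abundant miRNAs, a list that depends on levels in these libraries. The other 9 did not pass. Over all 480 tested miRNAs 19.8% were called higher. The other 21 had a median log2 fold change of 0.54, against 0.01 over all 480 miRNAs, and miR-7-1-3p stood 14th by fold. The arms with larger changes included miR-222-5p, at 77.5 ± 18.4 CPM in ETBF and 23.8 ± 4.85 CPM in control libraries (log2 fold change 1.70, SE 0.17, adjusted p = 1.19e-06). Next came miR-92a-1-5p of the growth-promoting miR-17-92 cluster, at 23.5 ± 4.14 CPM in ETBF and 8.06 ± 1.20 CPM in control libraries (1.56, SE 0.16, adjusted p = 1.97e-06). Just above and below miR-7-1-3p in the order were let-7a-3p (0.31, SE 0.07, adjusted p = 0.00369) and miR-10a-3p (0.26, SE 0.09, adjusted p = 0.0412). The miR-10a-3p call was lost in 14 of 18 alternatives, and that of let-7a-3p in 2 of 18. Calls were also lost for miR-29a-5p (13 of 18), miR-200c-5p (11 of 17), let-7f-2-3p (6 of 17) and let-7f-1-3p (1 of 17). Those of miR-21-3p, miR-222-5p, miR-92a-1-5p, miR-30d-3p, let-7a-2-3p and miR-26a-2-3p held in all alternatives.

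**Figure D3:**
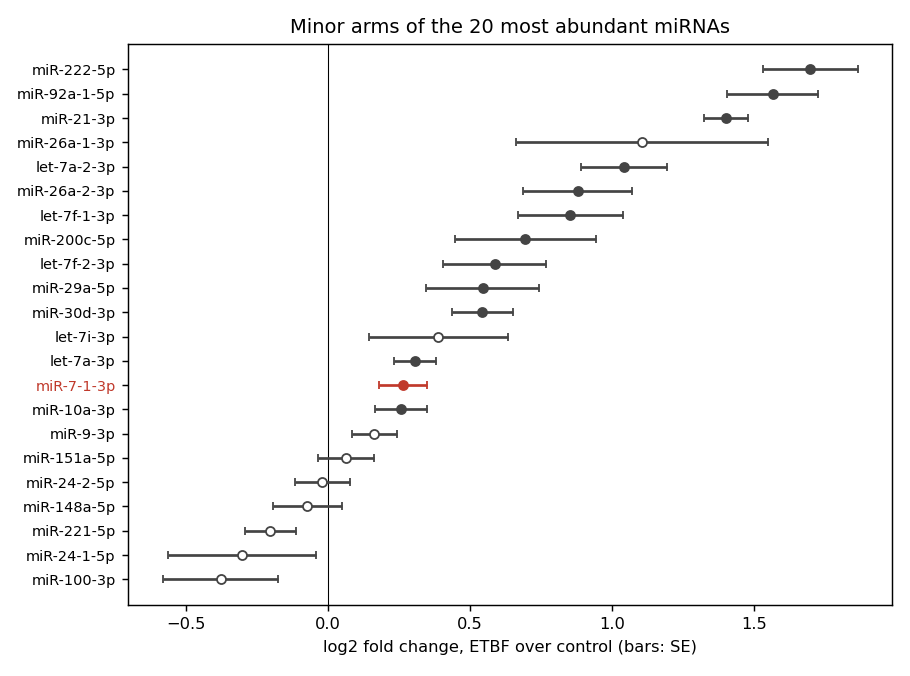
Log2 fold change, ETBF over control, with its SE for the 22 tested minor arms of the 20 most abundant miRNAs. Filled points passed an edgeR adjusted p of 0.05. MiR-7-1-3p (red, 0.26) lies 14th from the top, below miR-222-5p at 1.70 and above miR-100-3p at -0.38, which did not pass.

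The other entries followed at the miR-7 loci were close to or at 0. No passenger entry of MIR7-3 was among them, so these counts do not bear on that hairpin. MiR-7-2-3p had 0 counts in all 8 libraries, which allows up to 3 counts, or 0.460 to 1.16 CPM depending on the library and 0.0783 CPM over the 38294307 counts of all 8. Against that floor over all libraries, miR-7-1-3p with 3252 counts was at least 1084-fold higher. MiR-3529-3p, the reverse complement of miR-7-5p at the MIR7-2 locus, had 0 counts, and miR-3529-5p had 1 count in each group. MiR-1179, whose hairpin lies upstream of MIR7-2 on the same strand, had 5 counts in each group.

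The sources used here do not give the strand setting of the counting. MiR-7-2-3p and miR-3529-5p overlap by 20 bases on opposite strands, and the part of that overlap in their counts was not tested. Of 25 pairs of single-locus entries that overlap by at least 15 bases on opposite strands, 9 had 1 entry with 100 or more counts over the 8 libraries, 0 had both, and 3 had neither above 0. MiR-374b-5p, for example, had 24940 counts and its antisense partner miR-374c-3p had 0. Counts of miR-7-5p and of miR-7-1-3p had no common whole factor other than 1, so neither shows the same multiple count for every read. This cannot tell whether some reads were counted more than once.

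Both arms of miR-671 fell with ETBF. MiR-671-5p, which directs cleavage of the miR-7-binding circular RNA CDR1as, was at 34.8, 33.4, 30.3 and 29.9 CPM in ETBF libraries, against 49.5, 53.2, 49.0 and 49.8 CPM in control libraries. No value overlapped between the groups, and the level was 1.56-fold lower (log2 fold change -0.64, SE 0.10, edgeR adjusted p = 0.000105). MiR-671-3p was at 36.5, 34.3, 37.8 and 45.7 CPM in ETBF libraries, against 61.8, 59.3, 59.9 and 48.5 CPM in control libraries. It too was without overlap and 1.5-fold lower (-0.58, SE 0.12, adjusted p = 0.000853). Of all tested miRNAs, 14.6% were called lower and 15.6% had all ETBF libraries below all control libraries. Both calls held in all 18 alternatives. CDR1as itself was not analysed here.

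**Figure D4:**
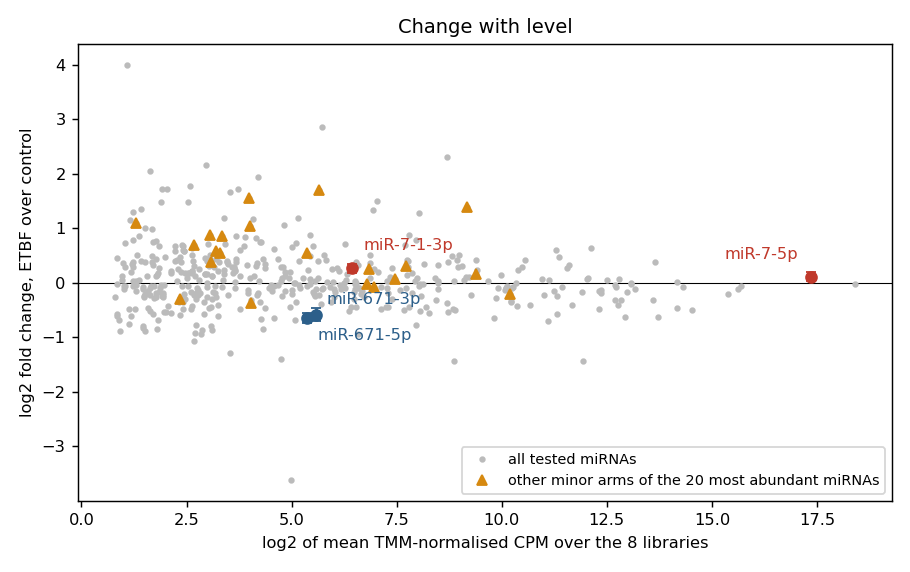
Log2 fold change, ETBF over control, against log2 mean TMM-normalised CPM for the 480 tested miRNAs (grey). Both miR-7 strands (red, 0.12 and 0.26) and both miR-671 arms (blue, -0.64 and -0.58) carry SE bars, and triangles mark the other 21 minor arms of the 20 most abundant miRNAs.

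The miRNAs most alike in pattern were sought by Pearson's r of log2 CPM over the 8 libraries among 293 other miRNAs with a mean of at least 10 CPM. For the guide they were let-7i-5p (r = 0.84), let-7f-1-3p (0.73), miR-365a-5p (0.72), miR-181a-3p (0.70) and miR-331-5p (0.69). For miR-7-1-3p they were miR-7974 (0.98), miR-141-5p (0.98), miR-222-5p (0.97), miR-181a-3p (0.96) and miR-21-3p (0.95). For the guide's set, values within the 4 ETBF libraries ran from 0.15 to 0.94 and within the 4 control libraries from 0.42 to 0.98. For the set of miR-7-1-3p, values within the 4 ETBF libraries ran from 0.49 to 0.97 and within the 4 control libraries from 0.48 to 0.90. The members themselves had an r of 0.55. All points share libraries and scaling, so these values are a description.

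Beside miR-7, other miRNAs reported to repress EGFR or its downstream pathway were also counted: of 14 listed, 12 were tested, 1 rose, 4 fell and 7 did not pass, with a median log2 fold change of -0.11, against 0.01 over all tested. Over all 480 miRNAs 19.8% were called higher and 14.6% lower, 34.4% in all, and 5 of 12 is near that share, though 4 of these 5 were lower. Those that fell were miR-128-3p, miR-27a-3p, miR-126-3p and miR-146b-5p. MiR-128-3p was at 4296 ± 417 CPM in ETBF and 5966 ± 327 CPM in control libraries (log2 fold change -0.47, SE 0.08, edgeR adjusted p = 0.000161), and miR-27a-3p at 2058 ± 136 CPM in ETBF and 3053 ± 211 CPM in control libraries (-0.57, SE 0.07, adjusted p = 1.71e-05). The member that rose was miR-34a-5p, a p53 target, at 248 ± 20.9 CPM in ETBF and 188 ± 13.4 CPM in control libraries (0.40, SE 0.09, adjusted p = 0.00162). MiR-27b-3p was at 4355 ± 234 CPM in ETBF and 4105 ± 204 CPM in control libraries and did not pass. The 12 tested members summed to 57370 to 68720 CPM in ETBF libraries and 54107 to 84472 CPM in control libraries, most of it miR-100-5p, and in every library stood below the guide.

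Endocrine and neuronal miRNAs, which share tissues with miR-7, were present in part. Of 14 listed names 13 were in the files, miR-124-3p and miR-137 were at 0 in every library, and 11 were tested. Of these 1 rose, miR-335-5p, 4 fell, miR-375, miR-128-3p, miR-132-3p and miR-129-5p, and 6 did not pass (median log2 fold change -0.10). In all 5 of 11 were called, where 34.4% of all tested miRNAs were. By direction, 4 of 11 fell, where 14.6% were called lower, and 1 rose, where 19.8% were called higher. Whether this list differs from all tested miRNAs was not tested. MiR-128-3p is on this list and on that of EGFR repressors. MiR-375, an islet and epithelial miRNA, was at 249 ± 5.02 CPM in ETBF and 368 ± 16.4 CPM in control libraries (log2 fold change -0.56, SE 0.07, edgeR adjusted p = 1.69e-05). MiR-9-5p, a neural miRNA, was at 8492 ± 854 CPM in ETBF and 8652 ± 910 CPM in control libraries and did not pass.

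Markers listed for colon epithelium were found at unequal levels. Of 8 listed names of colon epithelium 7 were in the files and 6 tested, with a summed level of 20292 to 23448 CPM in ETBF and 22857 to 24467 CPM in control libraries. Most of this was miR-200c-3p (mean 10961 CPM in ETBF, 13640 CPM in control libraries) and miR-200b-3p (6597 and 6743 CPM). MiR-192-5p (149 and 184 CPM) and miR-194-5p (168 and 155 CPM) were near the stromal miR-199a-3p (150 and 160 CPM), and miR-215-5p did not pass the filter. Of the 6 tested 1 rose, miR-31-5p, 2 fell, miR-200c-3p and miR-192-5p, and 3 did not pass, where 34.4% of all tested miRNAs were called. Blood markers summed to 71.0 to 103 CPM with ETBF and 58.4 to 67.6 CPM in controls over 4 tested of 7, and miR-223-3p was found with 2 counts in all ETBF and 1 in all control libraries together. Of the 4, miR-451a rose and 3 did not pass. Stromal and muscle markers summed to 385 to 429 CPM with ETBF and 413 to 428 CPM in controls over 4 tested of 7, and the 4 did not pass. MiR-214-3p was found with 1 count in all ETBF and 0 in all control libraries together. The part of other cells' RNA in the miR-7 values was not tested.

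**Figure D5:**
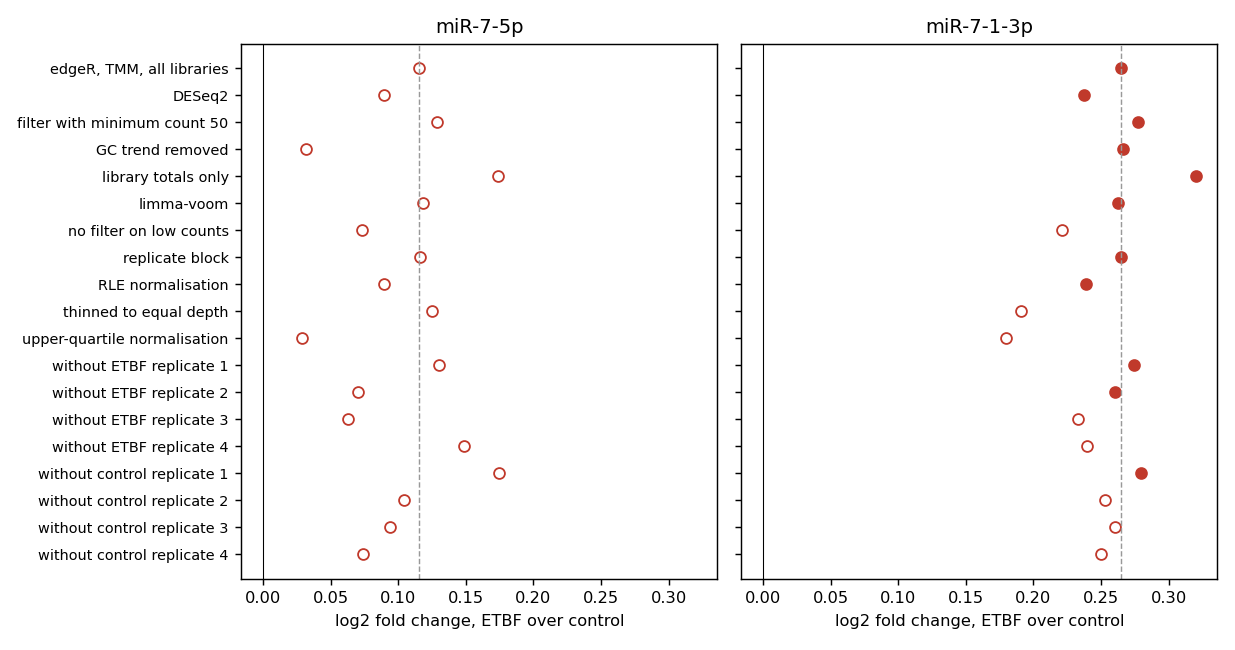
Log2 fold change, ETBF over control, of both miR-7 strands under each processing alternative, with the value of the fit reported (dashed) and filled points for an adjusted p under 0.05. MiR-7-5p ran from 0.03 to 0.17 with no filled point, and miR-7-1-3p from 0.18 to 0.32 with 11 of 19 points filled.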

How the data were processed

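Small RNA reads were counted by the authors, who deposited each library as a file of whole-number counts by mature miRNA name. Trimmomatic, FastQC, featureCounts and genome build GRCh37.p5 are named, per the submitters' processing notes. The sources used here give no versions, aligner, annotation release or strand setting. The 8 libraries were grouped by their titles. Names were tested with edgeR 4.0.16 under R 4.3.3, by its quasi-likelihood test (TMM, 2 groups, default filter at a minimum count of 10), which left 480 names holding at least 99.96% of each library's counts. P-values were two-sided and Benjamini-Hochberg adjusted over the 480, with a threshold of 0.05. SE is the log2 fold change over the root of F. Strand ratios were tested with limma 3.58.1 on log2 ratios of counts plus 0.5, with a variance trend on the minor arm's level. A pair is the 3p and 5p arms of a hairpin, and a guide shared by several hairpins enters several pairs. Library shares were compared by exact permutation. Scripts were tested on simulated data. Sequences came from RefSeq, which matched 2260 of 2575 names and both miR-7 names. Libraries of a group differed by more than counting noise (chi-square over its degrees of freedom, 18.4 to 112). Alternatives were DESeq2 1.42.0, limma-voom, other scalings and filters, thinning, a replicate block, leaving out each library and, added after the data were seen, removal of a GC trend.

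Named by rule are both miR-7 entries, related entries, the 5 most abundant miRNAs, neighbours in level, the 5 most alike each, and up to 4 members of each list by abundance. Other list members, such as miR-34a-5p, miR-375, miR-222-5p, miR-92a-1-5p, let-7a-3p and miR-10a-3p, and the opposite-strand and one-sided pairs, were named after their values were seen. Members and lists were chosen with earlier results of these data known.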

Additional observations from a re-analysis of the deposited data

Results flagged for a closer look

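In control replicate 1, miR-7-5p took 17.3% of the library, against 15.3% to 15.6% in the other 3 control libraries, a gap large enough to mark that library as apart from its group. After TMM scaling it was at 181337 CPM there, against 148641 to 163014 CPM in the other 3, and the library was not marked. Of 32 groups of 4 checked in this way 1 stood out, where chance alone marks about 1 in 20. Without that library the difference in share was 2.50 percentage points, against 2.03 with it.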

How the results depend on the processing

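MiR-7-5p did not pass in any of 19 alternatives (log2 fold change 0.03 to 0.17, adjusted p = 0.0568 to 0.816), the lowest adjusted p coming with library totals in place of TMM. Adding miR-3529-3p to it changed nothing, since that entry had 0 counts, and removing the GC trend gave 0.03 (the guide has 33.3% GC, against a median of 47.6% over the 417 tested miRNAs with a sequence). MiR-7-1-3p was higher with ETBF in all 18 alternatives. Its call was lost after thinning (0.19), with upper-quartile scaling (0.18) and with all names kept (0.22), and without single libraries its value ran from 0.23 to 0.28. The cause of these losses was not tested. The strand ratio did not pass in any of 11 alternatives (0.09 to 0.19), nor did either library share in any of 10. For the miR-7-1-3p share the permutation test gave an adjusted p of 0.0571 in all 10. With so few libraries it could pass only if the miR-7-5p share had a p under 0.05 too, so these outcomes cannot decide on miR-7-1-3p. The share of miR-7-5p differed by 1.54 to 3.40 percentage points and that of miR-7-1-3p by 0.00174 to 0.00315. The highest of each came with miR-21-5p left out of the library total, which makes every share larger, and without single libraries the differences were 1.54 to 2.52 and 0.00174 to 0.00218.

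With the replicate number as a block, miR-7-1-3p was at 0.26 (adjusted p = 0.0461), miR-7-5p at 0.12 (adjusted p = 0.330) and the strand ratio at 0.15 (adjusted p = 0.303), with 159 miRNAs called, against 165 without it. Same-numbered libraries did not deviate together (correlations -0.06 to 0.06, and 1 of 8 libraries correlated best with its own number). No pairing by number was seen, which does not exclude a shared culture or batch. Calls numbered 142 to 171 over the alternatives. The share of calls higher with ETBF was 57.6% with TMM and 44.4% with upper-quartile scaling. Of 35 other miRNAs with a called change, 24 kept their call in all alternatives and 0 turned direction; let-7a-3p, miR-10a-3p, miR-6087, miR-335-5p and miR-31-5p are among those that lost it in some. A division of the counts by a common factor was not run, since that factor was 1. MiR-7-1-3p rests on 267 to 516 counts per library.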
